A study of Mus musculus with 30 samples.

Results

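The 9 genes described here encode transcription factors and a cofactor that set the gene expression program of skeletal muscle: the myogenic regulatory factors Myod1, Myog, Myf5 and Myf6, the MEF2 factors Mef2a, Mef2c and Mef2d, the homeobox factor Six4 and the TEAD cofactor Vgll2. They were taken by gene symbol from the deposited tables, which hold 56951 symbols, and each had a single row. Of the 9 genes, 8 were among the 12030 genes tested, those whose average exceeded 20 reads and also 0.5 FPKM (fragment counts scaled to exon length and library size). Myf5 had a mean of 21.8 reads but only 0.431 FPKM, and was described outside the fit.

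Gastrocnemius muscle was dissected with the plantaris attached, and its poly(A) RNA was sequenced from 14 LD and 16 ADV mice, 1 library per mouse. All were male wild-type C57BL/6J mice that lived alone in cages with a running wheel, were entrained to a light-dark cycle with light from 8 to 20 h for 2 weeks, and were then kept in constant darkness for 2 weeks. For the following 64 weeks the LD mice stayed on the unshifted cycle, and the cycle of the ADV mice, a model of chronic jet lag, was advanced by 8 h every 4 days. The mice were young adults on arrival and old at the end, and 2 LD mice had been lost.

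The myogenic regulatory factors are basic helix-loop-helix proteins that pair with E proteins and bind the E-box, and they turn muscle precursor cells into muscle fibers: Myod1 and Myf5 act early, Myog at differentiation, and Myf6 (also called MRF4) is the member kept at a high level in mature fibers. MEF2 factors bind AT-rich sites beside E-boxes and are held inactive by class II histone deacetylases and released by calcium signals through calcineurin and CaM kinases. Six4 and its relatives act with Eya proteins at MEF3 sites, in promoters that include that of Myog, and Vgll2 is a muscle cofactor of the TEAD factors.

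Between 18875468.5 and 28512674 reads per library were counted on exons. The share of the library total on exons was 90.9 to 91.3% in LD and 91.1 to 92.7% in ADV libraries, and 2 libraries, ADV 34 (92.7%) and ADV 25 (92.0%), had the highest shares and also the steepest rise of counts with GC content. Because Mef2a, Mef2c and Six4 were lowest in these 2 libraries within the ADV group, results that rest on them are given with and without them. The defining markers of skeletal muscle were abundant (Acta1 16866 FPKM and Ckm 7517 FPKM on average in LD mice), whereas those of heart were at or near 0, with Nkx2-5 at 0 in every library. In bulk muscle, fewer cells of a type and less RNA per cell cannot be told apart.

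The promoters of the 4 factors that differed between the groups are shown because these genes moved in the same direction. Each is the stretch of 250 bases before the start of the deposited row on GRCm39, read from the genome in the direction of transcription: chr7:46025648-46025897 on the plus strand for Myod1, chr1:134217477-134217726 on the plus strand for Myog, chr10:107330599-107330848 on the minus strand for Myf6 and chr10:51898348-51898597 on the plus strand for Vgll2. Capitals mark matches on either strand to the E-box CANNTG, the MEF2 site (in Myog with its last base left free) and the MEF3 site TCAGGTT.
Myod1: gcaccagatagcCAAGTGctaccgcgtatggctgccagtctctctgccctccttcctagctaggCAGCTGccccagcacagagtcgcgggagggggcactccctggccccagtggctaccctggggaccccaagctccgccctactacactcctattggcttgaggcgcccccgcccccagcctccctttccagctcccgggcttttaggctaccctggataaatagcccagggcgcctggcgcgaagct
Myog: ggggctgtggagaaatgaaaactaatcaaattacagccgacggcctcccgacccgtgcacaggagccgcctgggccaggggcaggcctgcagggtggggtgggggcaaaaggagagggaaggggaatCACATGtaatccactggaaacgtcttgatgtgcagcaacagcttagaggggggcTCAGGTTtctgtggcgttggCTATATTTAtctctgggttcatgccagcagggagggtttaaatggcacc
Myf6: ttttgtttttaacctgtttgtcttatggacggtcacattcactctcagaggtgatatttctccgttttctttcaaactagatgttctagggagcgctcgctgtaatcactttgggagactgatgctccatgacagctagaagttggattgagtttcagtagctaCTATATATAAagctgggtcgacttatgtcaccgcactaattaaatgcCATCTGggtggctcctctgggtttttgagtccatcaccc
Vgll2: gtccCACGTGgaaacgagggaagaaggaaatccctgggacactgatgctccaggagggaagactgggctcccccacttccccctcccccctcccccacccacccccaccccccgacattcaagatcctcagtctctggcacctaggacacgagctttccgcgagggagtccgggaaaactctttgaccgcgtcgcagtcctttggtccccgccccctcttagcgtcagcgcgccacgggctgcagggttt

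An E-box lay in 57.6% of the 12028 promoters of tested genes and in 5 of the 9 described here: Myod1, with 2, and Myog, Myf6, Mef2c and Vgll2. The single E-box of Vgll2 has the letters CACGTG, the form that the clock factors Bmal1 and Clock are known to bind, and no other promoter of the 9 held that form, which was in 8.29% of all promoters. A MEF2 site was in 2.05% of all promoters and in that of Myf6 alone among the 9. With the last base of the MEF2 site left free, a setting added after the strict match had been seen, it was in 4.56% of promoters and also in those of Myog and Mef2c. The MEF3 site TCAGGTT was in 2.98% of promoters, among them those of Myog and Mef2c, and the TEAD site CATTCC in 10.4% and in that of Mef2c. The CArG box of SRF was in 1.16% of promoters and in none of the 9. These matches describe letters in a short window, and binding was not measured.

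Levels of the 9 genes can be set side by side as FPKM, a level per exon length. In LD mice Mef2c was highest with a mean of 115.7 FPKM, followed by Mef2d (55.5), Myf6 (49.6), Mef2a (27.7), Vgll2 (25.1), Myod1 (6.90), Six4 (2.65), Myog (1.57) and Myf5 (0.422). Mef2d exceeded Myf6 in 11 of 14 LD mice and Mef2a exceeded Vgll2 in 9 of 14, so neither pair was separated by the spread between mice. The order differed in ADV mice. Myf6 (64.7 FPKM) stood above Mef2d (59.7 FPKM) in 11 of 16 mice, and Vgll2 (51.1 FPKM) above Mef2a (25.0 FPKM) in 15 of 16. Six4 (2.78 FPKM) and Myog (2.66 FPKM), of which Six4 was the higher in 14 of 14 LD mice, stood close together, with Six4 higher in 10 of 16 ADV mice. Exon lengths of the deposited rows for Mef2a (2643 bases), Mef2c (2568) and Mef2d (1746) were shorter than those of the same transcripts in GENCODE M39 (5540, 6420 and 5450), which bears on their FPKM level against other genes but not on the group comparison.

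Whether chronic jet lag changed the level of the factors was asked by comparing ADV with LD mice gene by gene (edgeR quasi-likelihood F test, Benjamini-Hochberg FDR over all 12030 genes). Myod1, Myog, Myf6 and Vgll2 were higher in ADV mice and the MEF2 factors and Six4 did not pass the test. Thus 4 of the 8 tested factors were called at an FDR under 0.05, all of them higher, beside 10.8% of all genes tested called in either direction, 5.61% called higher and 5.2% called lower. With a fold change over 1.3 also asked for, 3 of the 8 were called (Myod1, Myog and Vgll2), beside 2.09% of all genes in either direction and 1.45% higher. All 4 called genes lay above their LD medians in 11 of 16 ADV mice and in 1 of 14 LD mice. Since the 4 were picked by their calls in these same mice, this count is a description and no further support.

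**Figure D1:**
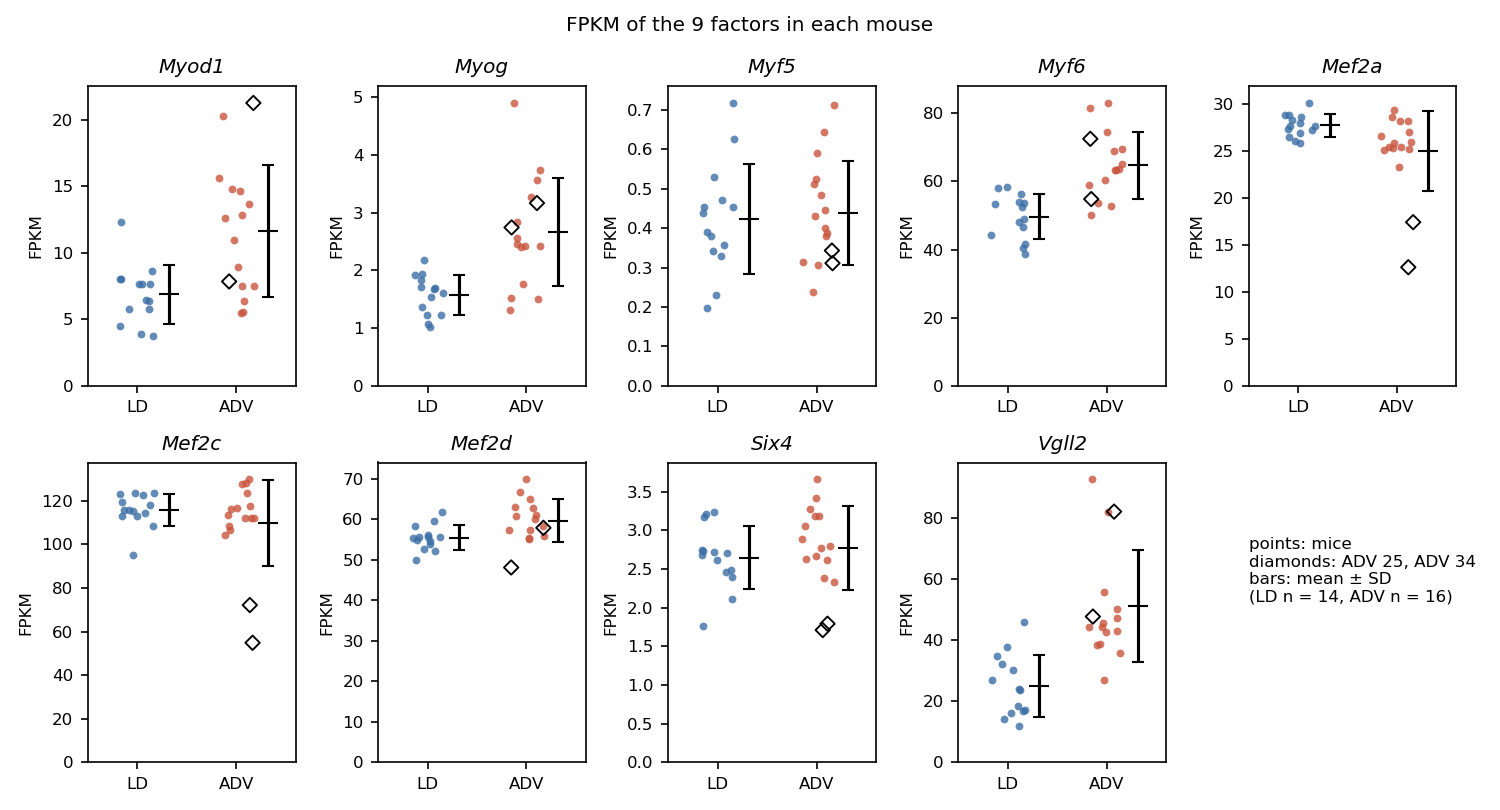
FPKM (vertical axis of each panel, from 0) of the 9 genes in each mouse of the LD (blue) and ADV (red) groups, with mean and SD beside the points and the libraries ADV 25 and ADV 34 as open diamonds. All 16 ADV mice lie above the LD median for Vgll2 (23.9 FPKM), and the 2 diamonds lie far below the other mice for Mef2a and Mef2c.

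Myod1 (chromosome 7, 46025898 to 46028523, plus strand, 3 exons), which commits cells to the muscle lineage, ranged from 3.75 to 12.3 FPKM in LD mice (median 7.04) and from 5.51 to 21.3 FPKM in ADV mice (median 11.8). The ranges overlapped, with 8 ADV mice above the highest LD mouse, LD 23, and 3 LD mice below the lowest ADV mouse, ADV 30. The ADV mean was 1.69 times the LD mean (11.6 ± 4.95 against 6.90 ± 2.22 FPKM, mean ± SD), and the log2 fold change was 0.73 (SE 0.19, edgeR FDR 0.0147). A Wilcoxon rank-sum test of FPKM, which called 9.43% of all genes, put Myod1 at an FDR of 0.0699, above the threshold of 0.05, so its call depended on the test. By that Wilcoxon test Mef2d (FDR 0.0610) and Mef2a (FDR 0.0650), which edgeR did not call, were above the threshold too.

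Myog (chromosome 1, 134217727 to 134220286, plus strand, 3 exons), needed for precursor cells to differentiate into fibers, was low in both groups, between 1.02 and 2.18 FPKM in LD mice (median 1.64) and between 1.31 and 4.90 FPKM in ADV mice (median 2.51). In 12 of 16 ADV mice it was above every LD mouse, and 4 ADV mice lay within the LD range. Its log2 fold change was 0.74 (SE 0.15, edgeR FDR 0.00377). Behind these values stand 33 to 85.5 reads per LD library and 47 to 205 reads per ADV library, and 22 bases of its exons overlap Gm32221 on the opposite strand. The counting is not stated to have used strand, so reads of overlapping genes on opposite strands cannot be told apart.

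Myf6 (chromosome 10, 107328714 to 107330598, minus strand, 3 exons) was the most abundant myogenic factor, with 38.7 to 58.3 FPKM in LD mice (median 50.6) and 50.1 to 83.0 FPKM in ADV mice (median 63.5). As many as 12 ADV mice were above the highest LD mouse and 7 LD mice below the lowest ADV mouse. The rise was smaller than that of Myod1 and Myog but more uniform, with a log2 fold change of 0.36 (SE 0.08, edgeR FDR 0.00378), just under the fold change of 1.3. Myf6 made up 84.7% of the summed FPKM of the 4 myogenic factors in LD mice and 81.7% in ADV mice, and the sum had a median of 59.2 FPKM in LD and 78.3 FPKM in ADV mice.

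Myf5 (chromosome 10, 107318769 to 107321995, minus strand, 3 exons), the early factor that neighbours Myf6 on the chromosome, was lowest of the 9 genes. It ranged from 0.197 to 0.717 FPKM in LD mice (median 0.414) and from 0.239 to 0.711 FPKM in ADV mice (median 0.415), with 9 to 33.5 reads per library. The ADV mice lay entirely within the LD range, and the difference in mean, 0.016 FPKM (SE 0.050), was not detectable at this depth (two-sided permutation test, p = 0.748). Whether its change differed from those of the other myogenic factors was not tested.

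Vgll2 (chromosome 10, 51898598 to 51904567, plus strand, 3 exons) showed the greatest difference of the 9 genes. It ranged from 11.9 to 46.0 FPKM in LD mice (median 23.9) and from 26.99 to 92.7 FPKM in ADV mice (median 45.0). Every one of the 16 ADV mice exceeded the LD median, which held for 1.33% of all genes tested, and 8 of 14 LD mice were below the lowest ADV mouse, although the ranges still overlapped. The ADV mean was 2.04 times the LD mean, with a log2 fold change of 1.01 (SE 0.18, edgeR FDR 0.00152). The spread among LD mice was as wide as among ADV mice, with a coefficient of variation of 40.2% in LD and 35.99% in ADV.

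Mef2a (chromosome 7, 66883787 to 67022606, minus strand, 11 exons) was held within 25.9 to 30.1 FPKM in LD mice (median 27.7), the narrowest range of the 9 genes in relation to its level. In ADV mice it ranged from 12.6 to 29.4 FPKM (median 25.6), and 9 of the 16 lay below the lowest LD mouse. The lowest were ADV 34 (12.6 FPKM, 45.6% of the LD median) and ADV 25 (17.4 FPKM, 63.0%). The log2 fold change was -0.17 (SE 0.07, edgeR FDR 0.121), and -0.09 (SE 0.04, FDR 0.123) without ADV 25 and ADV 34, when 7 of 14 ADV mice still lay below the LD range. After removal of each library's trend with GC content it was -0.08 (SE 0.06, FDR 0.427). Of its exon bases in GENCODE M39, 5.45% overlap Lysmd4 on the opposite strand.

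Mef2c (chromosome 13, 83652153 to 83811462, plus strand, 11 exons), the most abundant MEF2 factor, ranged from 95.0 to 123.6 FPKM in LD mice (median 115.5) and from 54.8 to 129.7 FPKM in ADV mice (median 112.8). Again ADV 34 (54.8 FPKM) and ADV 25 (72.1 FPKM) stood far below the others, whose lowest value was 104.2 FPKM. The log2 fold change was -0.10 (SE 0.08, edgeR FDR 0.401), -0.01 (SE 0.03) without these 2 libraries and 0.01 (SE 0.06) after removal of each library's trend with GC content. Of the other 14 ADV mice, none lay below the LD range and 3 lay above it.

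Mef2d (chromosome 3, 88049879 to 88075962, plus strand, 11 exons) ranged from 49.9 to 61.8 FPKM in LD mice (median 55.4) and from 48.1 to 69.8 FPKM in ADV mice (median 59.2). It was above the LD median in 13 of 16 ADV mice and above the LD range in 5, and lowest of all in ADV 34. The log2 fold change of 0.09 (SE 0.04, edgeR FDR 0.131) did not pass the threshold, with or without ADV 25 and ADV 34 (0.11, FDR 0.0664), and was 0.03 (SE 0.04, FDR 0.698) after removal of the GC content trend. The summed FPKM of the 3 MEF2 factors had a median of 199.9 in LD and 201.0 in ADV mice.

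Six4 (chromosome 12, 73146383 to 73160199, minus strand, 3 exons) ranged from 1.77 to 3.24 FPKM in LD mice (median 2.701) and from 1.71 to 3.66 FPKM in ADV mice (median 2.79), nearly the same interval. The log2 fold change was 0.05 (SE 0.09, edgeR FDR 0.725), and 0.13 (SE 0.08, FDR 0.309) without ADV 25 and ADV 34. Its lowest ADV values were again those of ADV 25 (1.71 FPKM) and ADV 34 (1.79 FPKM).

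**Figure D2:**
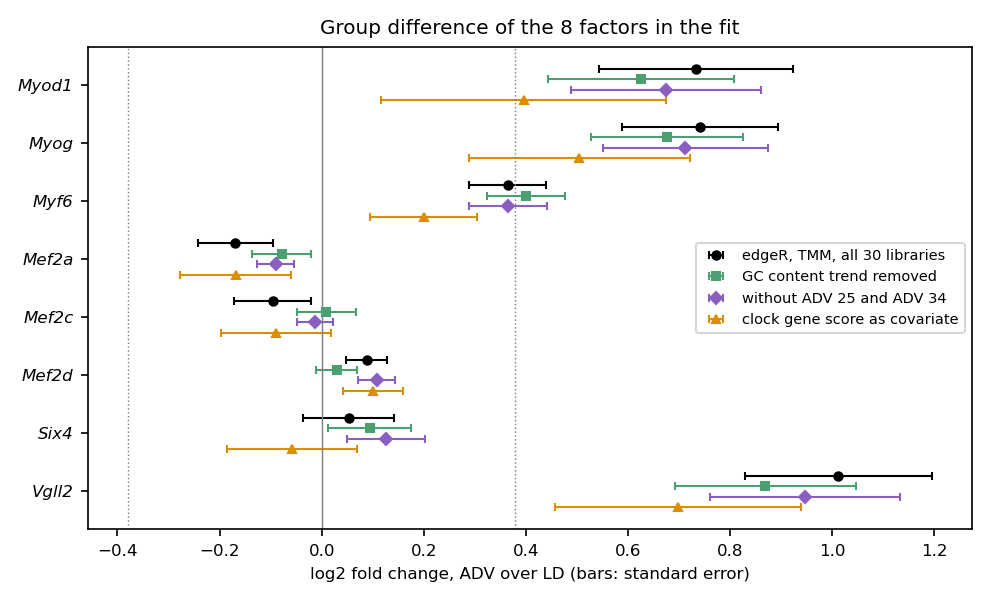
Log2 fold change of ADV over LD (horizontal axis, bars are standard errors) for the 8 genes in the fit, with all 30 libraries (black) and under 3 other settings, and dotted lines at a fold change of 1.3. Vgll2, Myod1, Myog and Myf6 lie to the right of 0 under each of the 4 settings, and Mef2c moves from -0.10 to -0.01 without ADV 25 and ADV 34.

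The clock genes, the immediate early genes, the exon share and the GC content trend moved with the schedules too. A score of clock genes, the mean of those that peak with Bmal1 minus the mean of those that peak opposite to it, ran from -3.17 to 1.10 in LD mice (median -1.05) and from -1.33 to 2.30 in ADV mice (median 1.04). Between the groups 3 of 5 genes high with Bmal1 were called higher, beside 5.61% of all genes. Those low with Bmal1 were called lower in 7 of 7 cases, beside 5.2% of all genes. With this score as a covariate, edgeR called none of the 8 factors and 0 of the 12030 genes (1427 at an unadjusted p under 0.05, 3624 without the covariate), and the log2 fold changes were 0.70 for Vgll2, 0.50 for Myog, 0.40 for Myod1 and 0.20 for Myf6. The muscles were collected in the light phase, and the hour of collection of each mouse is not in the labels. The schedule and the phase of the clock at collection cannot be told apart where they moved together.

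Of the 13 tested immediate early genes, 7 were called higher and none lower (53.8%, beside 10.8% of all genes). Their score ran from -0.93 to 0.25 in LD and from -0.55 to 1.88 in ADV mice. With that score as a covariate Myod1 stayed called (log2 fold change 1.02, FDR 0.0152), whereas Myog (0.71, FDR 0.0618), Myf6 (0.30, FDR 0.0902) and Vgll2 (0.62, FDR 0.0876) were not called. With the exon share as a covariate, an alternative chosen after seeing the data, Vgll2 alone stayed called (0.91, FDR 0.04999), and the log2 fold change was 0.56 for Myog, 0.43 for Myod1 and 0.37 for Myf6. An offset for the GC content trend left Myod1 (0.63, FDR 0.0422), Myog (0.68, FDR 0.00946), Myf6 (0.40, FDR 0.00369) and Vgll2 called.

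Mice of a group can differ more among themselves on one schedule than on the other, and a Brown-Forsythe test of log2 CPM (counts scaled to library size) asked this for every gene. The SD of Mef2a was 0.297 in ADV and 0.082 in LD mice, a ratio of 3.64 that 0.150% of all genes reached, and that of Mef2c was 0.303 and 0.085, a ratio of 3.58 that 0.183% reached. Neither was called (p = 0.158 and 0.156, FDR 0.809 for both), and without ADV 25 and ADV 34 the ratios were 1.37 and 1.03. The ratio was 1.56 for Myog, 1.31 for Myod1, 1.04 for Myf6 and 0.81 for Vgll2. Of all 12030 genes 1 was called, 0.00831%, and 715 (5.94%) had an unadjusted p under 0.05.

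Correlations of log2 CPM over mice were computed for the 28 pairs of factors within each group. None of the 56 relations had an adjusted p under 0.05 (smallest 0.0728), by Pearson's r or Spearman's rho, and 4 had an unadjusted Pearson p under 0.05 by permutation against 0 for Spearman. The median r was 0.11 in LD and 0.09 in ADV mice, and 18 of 28 pairs were positive in each group.

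Myod1 and Myog, which rose by a like amount between the groups, had r = 0.16 over LD mice (permutation p = 0.580) and r = 0.46 over ADV mice (permutation p = 0.0724, rho 0.47), and r = 0.46 again without the 2 ADV mice farthest from the median of Myod1. Myog and Myf6 had r = 0.20 in LD and 0.33 in ADV mice. Myod1 and Myf6 had r = -0.18 in LD and 0.20 in ADV mice. None of these relations passed the test, so a mouse high in one of the 3 was not detectably high in another within its group.

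For Myod1 and Vgll2, which were both higher in ADV mice, r was -0.53 over LD mice (rho -0.46, permutation p = 0.0517, adjusted 0.509, -0.63 without the 2 farthest mice) and -0.28 over ADV mice (rho -0.16, permutation p = 0.289, adjusted 0.630). Given the clock gene score, the LD value was -0.80 (adjusted p = 0.0353 by permutation over the same 56 relations), the single LD pair to pass the threshold in that setting.

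**Figure D3:**
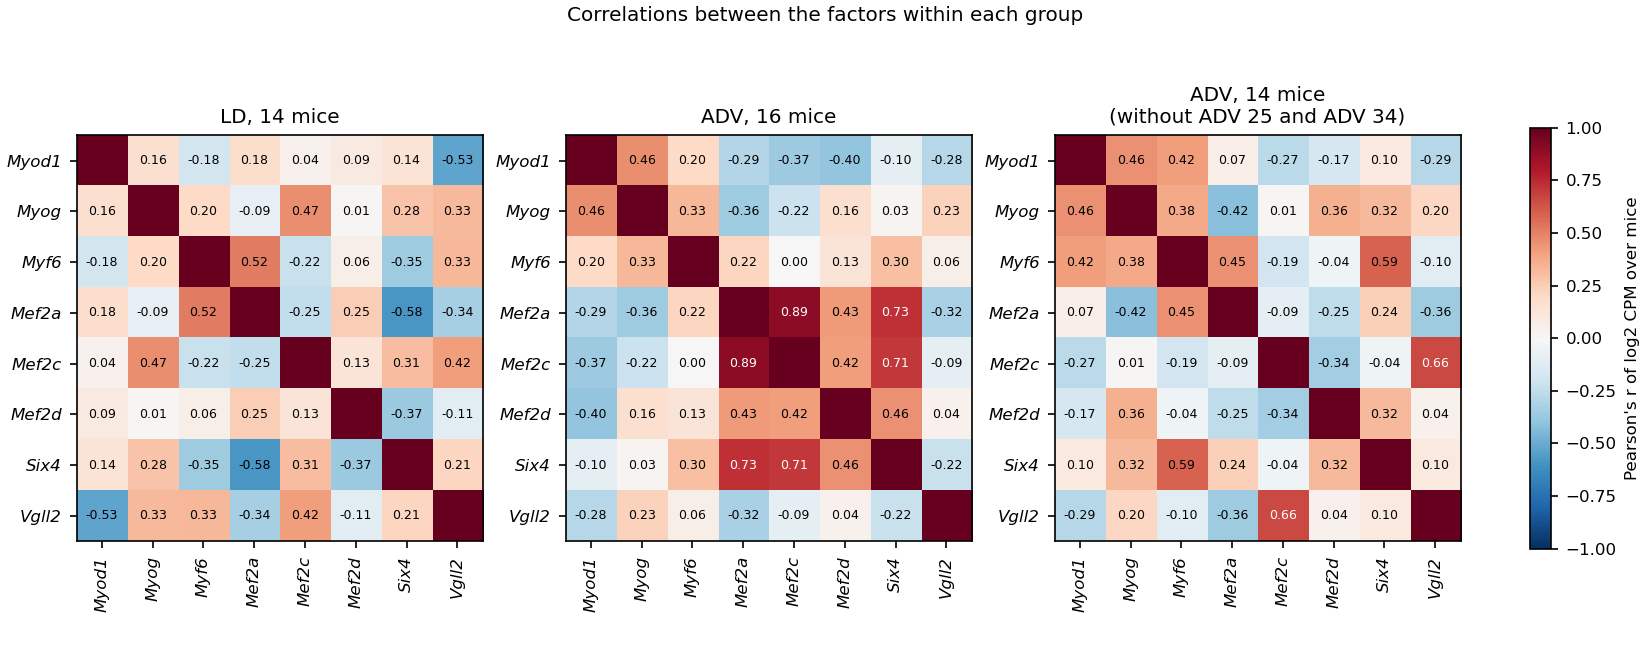
Pearson's r of log2 CPM over mice (colour and number, from -1 to 1) for each pair of the 8 factors in 14 LD mice, 16 ADV mice and 14 ADV mice without ADV 25 and ADV 34. The block of Mef2a, Mef2c and Six4 that stands at 0.71 to 0.89 in the middle panel is at -0.09 to 0.24 in the right one.

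The highest values were those among Mef2a, Mef2c and Six4 in ADV mice, and all rested on 2 libraries. Mef2a and Mef2c had r = 0.89 over 16 ADV mice (permutation p = 0.00260, adjusted 0.0728) but rho = 0.21, and r = -0.09 without ADV 25 and ADV 34. Mef2a and Six4 had r = 0.73 (permutation p = 0.00195, adjusted 0.0728), and 0.24 without them. Mef2c and Six4 had r = 0.71 (permutation p = 0.00492, adjusted 0.0918), and -0.04 without them. In LD mice the same pairs stood at -0.25, -0.58 and 0.31. The difference between the groups had an unadjusted permutation p of 0.0227 for Mef2a with Mef2c and 0.0248 for Mef2a with Six4, and an adjusted p of 0.347 for both over 28 pairs.

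Mef2a and Mef2c also moved with the exon share among ADV mice (r = -0.90 and -0.89, rho -0.53 and -0.47). Without ADV 25 and ADV 34 these values were -0.32 and -0.10. With the rise of counts with GC content, r in ADV mice was -0.84 for Mef2a, -0.79 for Mef2c and -0.72 for Six4, and -0.54, -0.19 and -0.30 without the 2 libraries. This trend is the fitted deviation of genes at 60% GC minus that at 40%. The GC content of the transcripts was 41.8% for Mef2a, 40.9% for Mef2c, 45.9% for Six4 and 54.8% for Mef2d. Mef2d rose with the GC content trend among LD mice (r = 0.76, permutation p = 0.00194, adjusted 0.0116 over 32 relations). Its rho there was 0.87 (adjusted permutation p = 0.00288), and r was 0.80 without the 2 farthest mice. In ADV mice its r was -0.20 (rho 0.17), and 0.32 without ADV 25 and ADV 34. Relations with the exon share and the GC content trend were chosen after seeing the data, and their part in the low values was not tested further.

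Among 64 relations of the factors with scores of clock, immediate early, slow fiber and satellite cell genes, 3 had an adjusted p under 0.05, and Vgll2 took part in 2 of them. Vgll2, which has been linked to the slow fiber program in mice, rose from mouse to mouse with the score of slow fiber genes such as Myh7, Myl3 and Tnni1. Its r was 0.76 over LD mice (rho 0.76, permutation p = 0.00137, adjusted 0.0292) and 0.79 over ADV mice (rho 0.69, permutation p = 0.00016, adjusted 0.0102). Without the 2 mice farthest from the median score r was 0.56 in LD (permutation p = 0.0594) and 0.58 in ADV mice (permutation p = 0.0273), so part of each relation rested on those mice. None of the 8 slow fiber genes was called between the groups, beside 10.8% of all genes. All 8 were higher in ADV mice, as were 6111 of the 12030 genes tested. Their median log2 fold change was 0.48, beside 0.00 over all genes. Standard errors of the 8 log2 fold changes ran from 0.25 (Atp2a2) to 0.37 (Myh7). Whether these 8 genes vary independently of one another was not tested. With the slow fiber score as a covariate Vgll2 stayed called (log2 fold change 0.75, SE 0.13, edgeR FDR 0.00304), as did Myod1, Myog and Myf6.

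The third relation was that of Myod1 with the satellite cell genes in ADV mice, and it was negative. Satellite cells are the resident stem cells of muscle. Of the 11 genes of that list 7 were tested and enter the score: Cdh15, Vcam1, Chodl, Fgfr4, Heyl, Spry1 and Sdc4. Cdh15 is also on the list of targets of the myogenic factors. Pax7, their defining marker, was at 0.296 FPKM in LD and 0.322 FPKM in ADV mice and under the filter, as were Pax3, Calcr and Megf10. The number of satellite cells was not measured. Over 16 ADV mice Myod1 had r = -0.74 with the score (rho -0.75, permutation p = 0.00123, adjusted 0.0292), and -0.74 without the 2 farthest mice. Without ADV 25 and ADV 34, r was -0.69 (permutation p = 0.00732, not adjusted). Over 14 LD mice r was 0.03 (rho -0.12, permutation p = 0.931), and the difference between the groups was not tested. The adjusted p of the 3 relations by Spearman's rho was between 0.0755 and 0.0943.

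**Figure D4:**
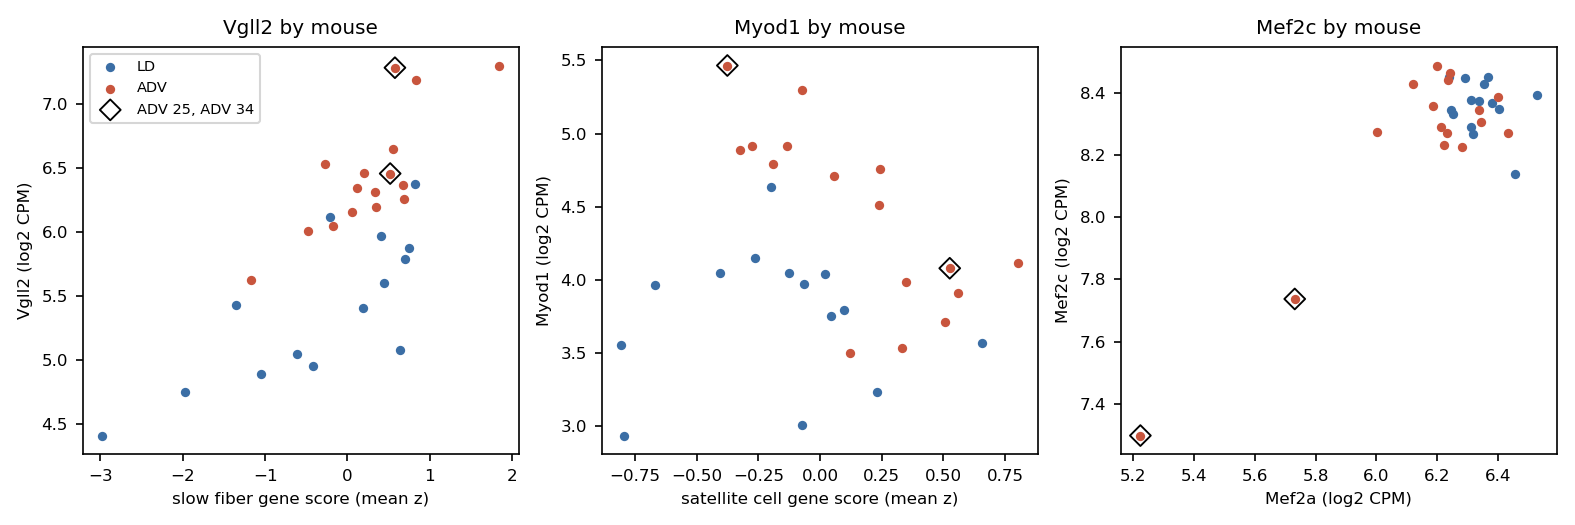
Vgll2 against the slow fiber score, Myod1 against the satellite cell score and Mef2c against Mef2a in each mouse (log2 CPM, scores as mean z), LD in blue, ADV in red, ADV 25 and ADV 34 in diamonds. Vgll2 rises with the slow fiber score in both groups (r = 0.76 and 0.79), and the relation of Mef2a and Mef2c rests on the 2 diamonds.

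The genes whose level followed each factor most closely from mouse to mouse were ranked by the mean of Fisher's z of r over LD and ADV mice, as a description without a test. Vgll2 had the closest followers, Dapp1 (r = 0.85 in LD, 0.92 in ADV), 2310020H05Rik (0.87 and 0.83) and Atp1b4 (0.86 and 0.82). Myf6 was followed by Nfil3 (0.87 and 0.55), a repressor of the clock output, Atoh8 (0.84 and 0.50) and Tsc22d3 (0.77 and 0.60), a glucocorticoid-induced gene. Myod1 was followed by Rnf122 (0.79 and 0.86), Zbtb7b (0.78 and 0.82) and Zfp219 (0.66 and 0.88). For Myog the values were lower, with Samd1 (0.65 and 0.71), Rps19bp1 (0.82 and 0.46) and Entr1 (0.72 and 0.61).

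The followers of the MEF2 factors and Six4 had their higher values in ADV mice in most cases, where ADV 25 and ADV 34 enter. Mef2a was followed by Tanc2 (0.56 and 0.94), Elk4 (0.51 and 0.92) and Hipk3 (0.47 and 0.93), and Mef2c by Kif1b (0.66 and 0.94), Map3k20 (0.75 and 0.90) and Asb1 (0.83 and 0.84). Mef2d was followed by Speg (0.83 and 0.81), a kinase of the muscle triad, and by Ankrd11 (0.65 and 0.87). Six4 was followed by Cdc27 (0.87 and 0.81), Gm14325 (0.90 and 0.71) and Zfp397 (0.77 and 0.86).

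Of 12 tested E proteins and inhibitors of helix-loop-helix factors, which pair with the myogenic factors or keep them from doing so, 2 were called higher and 1 lower (25.0%, beside 10.8% of all genes). Id1 and Id3, which bind E proteins and keep the myogenic factors from DNA, rose from 7.83 to 13.3 FPKM (log2 fold change 0.74, edgeR FDR 0.0181) and from 9.63 to 12.7 FPKM (0.38, FDR 0.0356). Bhlhe40, a repressor that is also a clock-controlled gene, fell from 35.3 to 23.04 FPKM (log2 fold change -0.64, FDR 0.00152). The E proteins Tcf3, Tcf4 and Tcf12 were at 4.29, 4.65 and 4.43 FPKM in LD mice, and none was called.

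Of 8 TEAD factors and cofactors other than Vgll2, Tead4 was called higher (3.63 to 4.58 FPKM, log2 fold change 0.32, edgeR FDR 0.0477), and 7 were not called. The share called was 12.5%, beside 10.8% of all genes, and so near the background. Tead1, the most abundant TEAD factor, was at 28.5 FPKM in LD and 27.2 FPKM in ADV mice, and the coactivator Yap1 at 12.4 and 13.5 FPKM. Vgll3 and Vgll4, the relatives of Vgll2 on the list, had log2 fold changes of -0.11 and 0.11 with FDRs of 0.425.

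None of 9 tested genes on the list of relatives and partners of Six4 was called, beside 10.8% of all genes. The Eya and Dach factors are on this list. Six2 was at 5.42 FPKM in LD and 4.87 FPKM in ADV mice (edgeR FDR 0.514) and Six5 at 0.77 FPKM in both groups (FDR 0.922). Eya4 was the most abundant Eya factor, at 9.49 FPKM in LD and 8.29 FPKM in ADV mice.

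Of 18 tested partners of MEF2 and SRF, 2 were called higher and 1 lower (16.7%, beside 10.8% of all genes). Rcan1, an inhibitor of calcineurin, was 47.9 ± 22.4 FPKM in LD and 117.1 ± 59.8 FPKM in ADV mice (log2 fold change 1.27, edgeR FDR 0.00251). Hdac5, a class II histone deacetylase that represses MEF2, rose from 16.4 to 19.3 FPKM (0.22, FDR 0.00778). Ppp3cb, a catalytic subunit of calcineurin, fell from 60.6 to 53.3 FPKM (log2 fold change -0.20, FDR 0.0292), and the other catalytic subunit Ppp3ca, at 61.8 and 57.8 FPKM, was not called (FDR 0.0820). Mef2b, the remaining MEF2 gene, was at 0.115 FPKM in LD and 0.106 FPKM in ADV mice and under the filter.

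Of 16 tested targets of the myogenic factors, 2 were called higher and none lower (12.5% called, beside 10.8% of all genes), a share near the background. These were Cdkn1a, the cell cycle inhibitor p21 (10.6 to 20.7 FPKM, log2 fold change 0.95, edgeR FDR 0.0241), and the Notch ligand Dll1 (1.07 to 1.62 FPKM, 0.58, FDR 0.0111). The most abundant targets, Acta1 and Ckm, had log2 fold changes of 0.04 and 0.03 (FDR 0.682 and 0.797). The list had a median log2 fold change of 0.03, beside 0.00 over all genes.

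Of 10 MEF2 targets 3 were called higher and none lower (30.0%, beside 5.61% of all genes called higher). Xirp1, which encodes an actin-binding protein of muscle attachment sites, went from 57.6 ± 29.8 to 153.6 ± 94.6 FPKM (log2 fold change 1.41, edgeR FDR 0.00276). Jun, which is also on the immediate early list, rose from 20.3 to 29.2 FPKM (0.51, FDR 0.00411) and Klhl40, a stabilizer of thin filament proteins, from 59.9 to 75.8 FPKM (0.32, FDR 0.00384). The most abundant, Xirp2 and Slc2a4, the insulin-responsive glucose transporter, were at 212.4 and 186.2 FPKM in LD mice with log2 fold changes of 0.01 and 0.02. None of 12 Six4-related targets in fast fibers was called, beside 10.8% of all genes. Tnnt3 and Myh4, the most abundant, had log2 fold changes of -0.02 (edgeR FDR 0.887) and -0.19 (FDR 0.160).

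Of the 7 tested satellite cell genes, Sdc4 alone was called, and it was higher (11.7 to 15.7 FPKM, log2 fold change 0.41, edgeR FDR 0.0453). That share was 14.3%, beside 10.8% of all genes, and so near the background. Of the 13 called genes of these lists, the factors themselves left out, 8 had exons that overlap another gene in GENCODE M39, on the opposite strand in each case and for Hdac5 also on the same strand (Mir8101), with 27.6% of the exon bases of Dll1 shared with Fam120b and 30.0% of those of Hdac5 with G6pc3. For other cell types, the summed FPKM ran from 4.10 to 11.2 in LD and 3.73 to 9.87 in ADV mice for 5 leukocyte markers and from 249.3 to 328.4 and 214.6 to 334.3 for 4 fibroblast markers, of which Pdgfra was called lower. It ran from 45.7 to 64.7 and 51.9 to 68.3 for 4 endothelial markers, of which Pecam1 was called higher, from 7.49 to 70.3 and 5.25 to 203.7 for 4 adipocyte markers, and from 23.3 to 44.1 and 25.0 to 77.0 for 4 Schwann cell markers, with none called in the latter 2 lists. Pdgfra and Pecam1 each made up 25.0% of their list, beside 10.8% of all genes called. The part of cell composition in the levels of the factors was not tested.

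**Figure D5:**
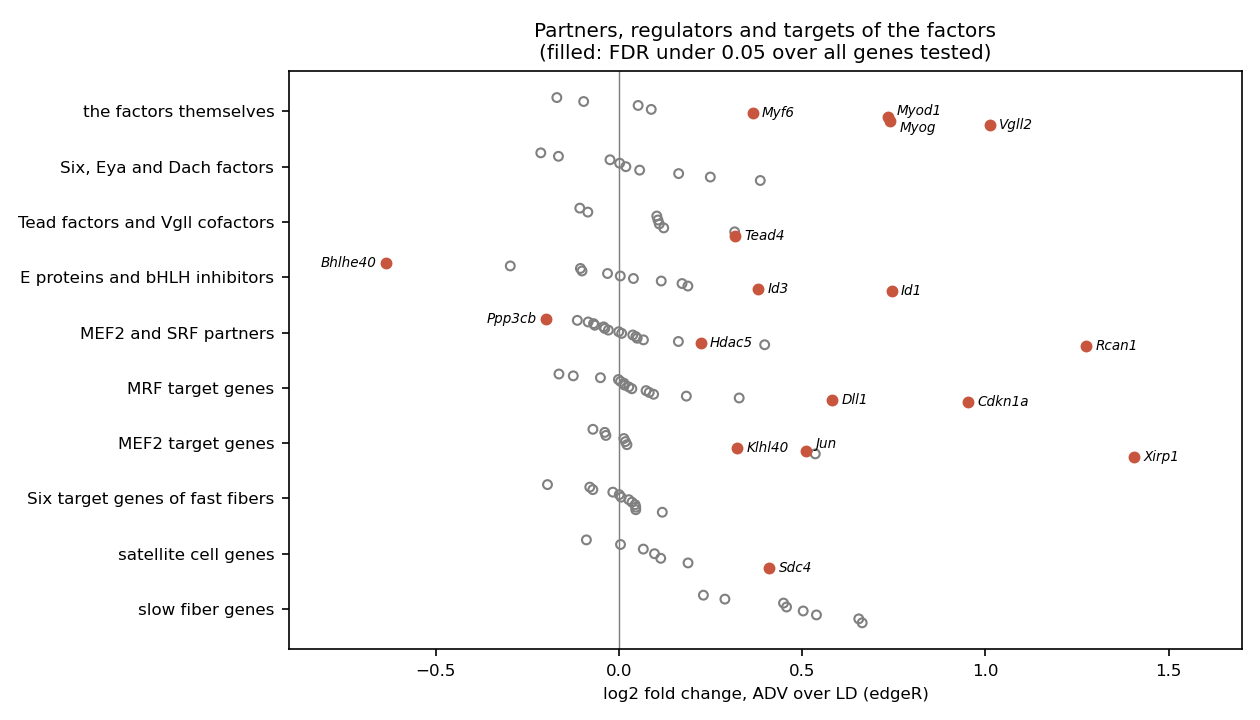
Log2 fold change of ADV over LD (horizontal axis) for each tested gene of the factors and of 9 lists of partners, targets, satellite cell and slow fiber genes, filled and named where the edgeR FDR over all genes tested is under 0.05. Filled are 4 of 8 factors, 3 of 10 MEF2 targets, 3 of 12 E proteins and inhibitors, 3 of 18 MEF2 and SRF partners, 2 of 16 targets of the myogenic factors and 0 of 12 Six4-related targets of fast fibers, beside 10.8% of all genes, and the 8 slow fiber genes all lie to the right of 0 without being called.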

How the data were processed

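RNA-seq of 30 gastrocnemius libraries (14 LD, 16 ADV) was analysed. Adaptors were removed by the authors with Trimmomatic, alignment to GRCm39 was made with STAR (2.7.10a per the labels), alignments of mapping quality under 10 were dropped, and HOMER (4.11 per the labels) counted reads on exons. The deposited raw counts are estimated counts in which each mate counts as 0.5 read, and 14.8% of them were not whole; they were rounded before testing. The FPKM values, deposited by the authors for the same 57186 rows, are the counts per exon length and library total. Whether counting used strand is not given in the sources used here.

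Groups were taken from the labels. For a symbol with several rows the longest with a mean over 20 reads was kept, and the 12030 genes above 20 reads and 0.5 FPKM on average were tested. Total reads on exons set the counting error, which is large for Myf5 and Myog. ADV and LD were compared with edgeR 4.0.16 (TMM, quasi-likelihood F test, Benjamini-Hochberg FDR under 0.05) in R 4.3.3. Standard errors of edgeR log2 fold changes were derived from the test, as the absolute log2 fold change over the square root of F. Alternatives were DESeq2 1.42.0, limma 3.58.1 on log2(FPKM + 0.1) and log2(FPKM + 1), a Wilcoxon test, other size factors and filters, covariates, a GC content offset, the label number as a block and leaving out each library. Spread was compared by Brown-Forsythe tests, and correlations used 100000 permutations with Benjamini-Hochberg adjustment within the family (scipy 1.17.1). Scores are means of z-scored log2 CPM of a list. The tests were also run on simulated data. P-values measure the spread between mice, each with 1 library, and no 2 libraries of a group agreed within sampling noise.

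The 9 genes and the lists were chosen with earlier results of these data known. Named besides the 9 genes were, in each list of partners and targets, up to 5 called genes and the 2 most abundant, relatives of Six4 and the MEF2 factors, defining cell type markers, and for each factor its 3 closest genes, some of which are not reported here. Others were named after their values were seen: the E proteins, Vgll3, Vgll4, genes of the slow fiber, satellite cell and clock lists, and overlapping genes. Promoters were read from GRCm39 and annotation from GENCODE M39, a different release from that of the tables. Protein sequences were not used here.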

Additional observations from a re-analysis of the deposited data

How the results depend on the processing

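Without each of the 30 libraries in turn, none of the 8 factors changed its call or direction. The log2 fold change stayed between 0.65 and 0.82 for Myod1, 0.65 and 0.79 for Myog, 0.34 and 0.39 for Myf6, 0.94 and 1.11 for Vgll2, -0.19 and -0.12 for Mef2a, -0.11 and -0.05 for Mef2c, 0.07 and 0.11 for Mef2d, and 0.02 and 0.09 for Six4. The number of factors called was 4 in each of these fits, and the number of genes called was between 835 (without LD 28) and 1542, against 1301 with all libraries.

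A clock gene score as a covariate left Myod1 at 0.40 (FDR 0.573), Myog at 0.50 (0.348), Myf6 at 0.20 (0.446) and Vgll2 at 0.70 (0.286), turned Six4 to -0.058, and left 0 factors and 0 genes called at either limit. An immediate early gene score left 1 factor called, with Myog at 0.71, Myf6 at 0.30 and Vgll2 at 0.62, and 82 genes (50 with a fold change over 1.3). The exon share left 1 factor called, with Myod1 at 0.43, Myog at 0.56 and Myf6 at 0.37, turned Mef2a to 0.061 and Mef2c to 0.11, and left 45 genes (26). An offset for the GC content trend turned Mef2c to 0.0091 and left 603 genes (167), and a slow fiber score left 541 (142). Without ADV 25 and ADV 34, 745 genes were called, and without a filter on low genes 629. With limma on log2(FPKM + 1), 123 genes passed with a fold change over 1.3. By the Wilcoxon test the log2 ratio of median FPKM of Myod1 was 0.75, with an FDR of 0.0699. The cause of these changes was not tested. The 8 factors kept their direction and call with DESeq2, other size factors, summed rows, no filter, both limma settings and without ADV 25 and ADV 34. With no filter on low genes Myf5 was not called.

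Libraries with the same label number were compared across the groups, without a test of whether the numbers mark pairs. Of 14 same-numbered pairs, 6 had a correlation of deviations over 0.1 (median 0.01, from -0.26 to 0.43), and 3 LD libraries correlated best with their own number. What the numbers mark was not tested. With the number as a replicate block over 28 libraries the same 4 factors were called (0.73 for Myod1, 0.66 for Myog, 0.34 for Myf6, 0.92 for Vgll2), and 494 genes (137 with a fold change over 1.3), against 616 (151) for the 28 libraries without the block.

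Without ADV 25 and ADV 34 the log2 ratio of the SDs of Six4 was -0.10. Given the clock gene score, 1 pair in LD and 3 pairs in ADV mice passed an adjusted p of 0.05, and the ADV pairs were Mef2a with Mef2c (0.90), Mef2a with Six4 (0.74) and Mef2c with Six4 (0.74). Of the 56 correlations 25 changed sign under at least 1 setting, 6 of them among the 12 with r over 0.4 in size. Among the pairs described these included Mef2a with Mef2c in ADV mice (-0.092 without the 2 farthest mice, which were ADV 25 and ADV 34), Mef2c with Six4 in ADV mice (-0.041 likewise), Mef2a with Mef2c in LD mice (0.012 without the 2 farthest mice, 0.37 with the GC content trend removed), Mef2a with Six4 in LD mice (0.091 without the 2 farthest mice), Mef2c with Six4 in LD mice (-0.16 with the trend removed) Myod1 with Vgll2 in ADV mice (0.0070 given the immediate early gene score) and Myog with Myf6 in LD mice (-0.015 given the clock gene score). Without ADV 25 and ADV 34, Mef2a with Mef2d in ADV mice went from 0.43 to -0.25, Mef2c with Mef2d from 0.42 to -0.34 and Mef2c with Vgll2 from -0.087 to 0.66. By Spearman's rho Vgll2 with the slow fiber score was 0.76 in LD and 0.69 in ADV mice and Myod1 with the satellite cell score was -0.75, each with an adjusted p over 0.05, and the LD value for Vgll2 was 0.56 without the 2 farthest mice. Depth limits Myf5 most.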
